A study of Mus musculus with 4 samples.

Results

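The genes described here are 7 mouse genes that act in the exit of T cells from tissue and in their recirculation through lymphoid organs, namely S1pr1, S1pr4, S1pr5, Klf2, Klf3, Cd69 and Cd44. They were chosen by name, as every non-control probe of the array that carries one of these symbols, which gave 11 probes for 7 of the 27376 gene names on the array. Their levels were compared between CD8αβ+ intraepithelial lymphocytes (IELs) of the small intestine and CD8αβ+ splenocytes (SPLs). Both groups came from untreated male wild-type C57BL/6 mice of 8 to 12 weeks, and total RNA of 2 samples per group was hybridised to 1-colour 60-base oligonucleotide arrays, so that 4 arrays were available in all. Per the study's methods the cells were sorted as CD45+ CD3+ CD8α+ CD8β+ TCRβ+ and each sample was pooled from several mice. The spread between 2 samples of a group is therefore a spread between pools.

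Sphingosine 1-phosphate (S1P) is kept high in blood and lymph and low inside tissues, and lymphocytes leave a tissue by sensing this gradient with the receptor S1PR1. The transcription factor KLF2 drives the transcription of S1pr1. CD69 binds S1PR1 and removes it from the cell surface, and low S1pr1 and Klf2 with surface CD69 is a known feature of T cells that stay in epithelium. CD44 is the receptor for hyaluronan and is kept high on T cells that have met antigen.

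The probes that carried the comparison are shown first, because the 2 probes of Klf2 gave unlike results. Klf2 probe A_51_P144264 lies at chr8:74845137-74845196 on the plus strand of mm9 and has a GC content of 43.3%. Klf2 probe A_52_P442031 starts 1376 bases upstream of it, at chr8:74843761-74843820, and has a GC content of 78.3%. The single S1pr1 probe, A_52_P532227, lies at chr3:115414020-115414079 on the minus strand. The array annotation gives the gene and position of these probes and not whether they fall in coding exons or untranslated regions. The first 30 of the 60 bases of each, as deposited and 5′ to 3′, were as follows.
Klf2 A_51_P144264: tgtatataagactatgaccgattgtatttc
Klf2 A_52_P442031: acacgccgccgctcagccccgacggccccc
S1pr1 A_52_P532227: aagatgaaaatgtgttccttttttgtcaca

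Levels are given on the normalized log2 scale, which is the log2 of the processed intensity minus the 75th percentile of the array, so that a level of 0 equals that percentile. Levels of different probes cannot be ranked against each other. Each of the 2 slides held 1 array of each group. Slide 1 held IEL replicate 1 and SPL replicate 2, and slide 2 held IEL replicate 2 and SPL replicate 1.

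The IEL replicates were unlike each other, and this bears on every value below. Over the 27912 tested probes, IEL replicate 2 correlated at 0.992 with SPL replicate 1 and at 0.946 with IEL replicate 1. The SPL replicates correlated at 0.986. The array labelled IEL replicate 2 thus lay nearer to both SPL arrays than to the other array of its label. Whether its sample was mixed or mislabelled was not tested, so the IEL means and the fold changes with 4 arrays average 2 unlike arrays. The summed level of 8 CD8 T cell markers was between 661 and 716 times the 75th percentile on all arrays. That sum shows that T cells were present and does not measure the purity of the sort. The 6 neutrophil markers on the array summed to 0.218 in IEL replicate 1, 35.5 in IEL replicate 2, and 43.9 and 49.5 in the SPL arrays. For the 6 erythroid markers the sums were 1.16, 75.02, 99.1 and 116 in the same order, and for the 8 B cell markers they were 3.61, 21.2, 27.4 and 20.8. Markers of epithelial cells summed to 26.5, 5.08, 2.09 and 0.578, and those of Paneth cells to 530.1, 13.0, 8.24 and 5.32. Those of macrophages or dendritic cells summed to 9.65, 13.5, 15.3 and 6.08, and those of natural killer cells to 266, 154, 133 and 97.3. Nkg7 was the highest natural killer marker on every array. All of these populations lie outside the sort gate. In IEL replicate 1, 4 of 8 B cell, 3 of 6 erythroid and 2 of 6 neutrophil markers were well above background, against at least 7, 5 and 5 on each other array. For natural killer cells it was 4 of 6 in IEL replicate 1 and 6 on each other array. For macrophages or dendritic cells it was 6 of 9 against at least 8. The part of these markers in the results below was not tested, and fewer cells of a type cannot be told apart from less RNA per cell.

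**Figure D1:**
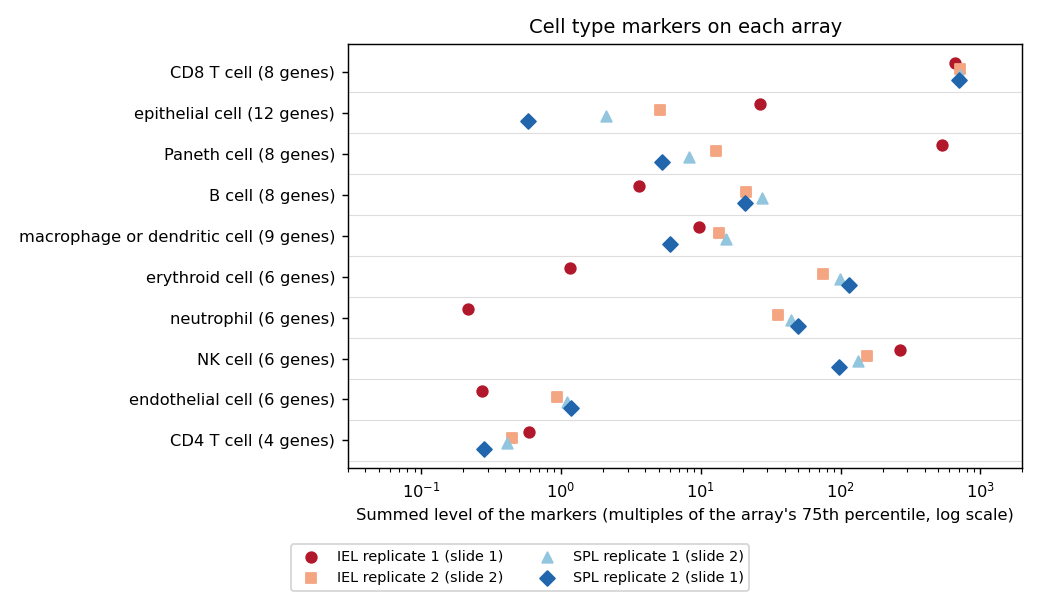
Summed level of the markers of each cell type (y axis) on each of the 4 arrays, in multiples of the 75th percentile of the array on a log axis; each point is 1 array. CD8 T cell markers lie between 661 and 716 on all arrays, and the neutrophil, erythroid and B cell sums of IEL replicate 2 lie near those of the SPL arrays.

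With all 4 arrays, none of the 11 member probes passed the limma test at an adjusted p of 0.05, where 0% of the 27912 tested probes passed in either direction. At an unadjusted p under 0.05 none of the 11 member probes passed limma, whereas 4.63% of all tested probes passed as higher and 1.1% as lower in IELs. The methods' t-test at the same unadjusted threshold called 1 member probe, Klf3 A_51_P492640, as lower, and 1.25% of all probes as lower. Both IEL arrays lay below both SPL arrays for 4 member probes, of S1pr1, Klf2 and Klf3, and this held for 24.6% of all tested probes. Both lay above for 2 member probes, both of Cd44, against 24.4% of all tested probes. The median log2 fold change of the 11 probes was -0.18, beside a median over all tested probes of -0.00070. With 2 arrays against 2 the smallest p of an exact permutation test of a single value is 0.33, so that no such test could pass.

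**Figure D2:**
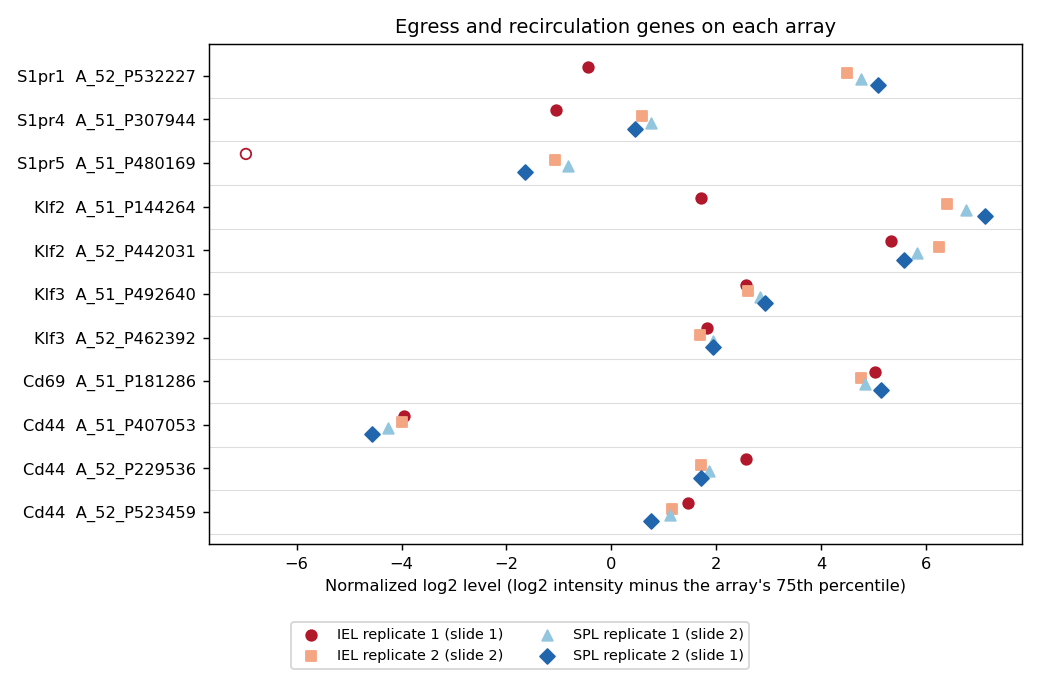
Normalized log2 level (x axis) of each member probe (y axis) on each of the 4 arrays; filled points were well above background and the open point was not. For S1pr1, S1pr4, S1pr5 and Klf2 A_51_P144264, IEL replicate 1 lies apart to the left and the other 3 arrays lie together.

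The receptor S1pr1, through which lymphocytes follow S1P out of tissue, had levels of -0.45 and 4.49 in IEL replicates 1 and 2 and of 4.75 and 5.08 in SPL replicates 1 and 2. The processed intensities behind these were 228, 9797, 12895 and 20407. Both IEL arrays were thus below both SPL arrays, but IEL replicate 2 was within 0.26 of SPL replicate 1 on its slide. The group means were 2.02 ± 3.50 (SD, n = 2) in IELs and 4.91 ± 0.23 (SD, n = 2) in SPLs. The log2 fold change was -2.89 (SE 1.69, 95% confidence interval -7.44 to 1.66, limma adjusted p = 0.634). On slide 1 the level in IELs was 46.1-fold below that in SPLs, and on slide 2 it was 1.19-fold below.

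S1pr4, a receptor of blood cells, had levels of -1.05 and 0.57 in IELs and 0.75 and 0.45 in SPLs, and the groups overlapped. Its log2 fold change was -0.84 (SE 0.60, limma adjusted p = 0.639), made up of -1.50 on slide 1 and -0.17 on slide 2. S1pr5, the receptor that natural killer cells and some effector T cells use to leave bone marrow and lymph nodes, had levels of -6.97 and -1.08 in IELs and of -0.83 and -1.66 in SPLs. In IEL replicate 1 the S1pr5 probe was not well above background, and the probe entered the test through the SPL group. IEL replicate 2 lay between the SPL arrays, so that the groups overlapped. Since the IEL mean of S1pr5 includes a value not well above background, its fitted log2 fold change of -2.78 (SE 2.02, limma adjusted p = 0.640) is not a measured size, and with the normexp corrections it was -0.53 and -0.72. On slide 1, with IEL replicate 1 set to the lowest level that was well above background on it, the processed intensity of S1pr5 was at least 17.5-fold lower in IELs. This value moved with the background correction, since the slide 1 difference of S1pr5 was -5.31 with the processed intensities, -0.46 with normexp and -1.25 with normexp fitted without spots far below local background.

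Klf2, which drives S1pr1 transcription, was read by the 2 probes shown above. Probe A_51_P144264 had levels of 1.71 and 6.39 in IELs and of 6.76 and 7.13 in SPLs, from intensities of 1021, 36493, 52073 and 84579. The 4 arrays thus fell in the same order as for S1pr1. The log2 fold change was -2.89 (SE 1.61, 95% confidence interval -7.21 to 1.42, limma adjusted p = 0.634). The level in IELs was 42.7-fold below that in SPLs on slide 1 and 1.29-fold below on slide 2.

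The GC-rich upstream Klf2 probe A_52_P442031 had levels of 5.33 and 6.24 in IELs and of 5.83 and 5.57 in SPLs. IEL replicate 1 was the lowest and IEL replicate 2 the highest of the 4, and the groups overlapped. Its log2 fold change was 0.08 (SE 0.39, 95% confidence interval -0.97 to 1.14, limma adjusted p = 0.939). On slide 1 the 2 Klf2 probes thus differed in their IEL minus SPL difference by 5.18 on the log2 scale. Of the 6307 gene names with several tested probes, 16 (0.254%) had a range at least as wide on that slide, and the median range was 0.52. The range was 0.26 among the 3 Cd44 probes and 0.27 between the Klf3 probes. A GC content of 70% or more was found in 71 tested probes, of which 0% were at least 2-fold lower and 9.86% at least 2-fold higher in IELs on slide 1, against 13.7% and 11.8% of all tested probes. The part of base composition in the Klf2 disagreement was not tested. The mean of both Klf2 probes gave a log2 fold change of -1.41.

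Klf3, a related factor that mostly represses transcription, differed little between the groups. Its probe A_51_P492640, whose 60 bases span 581 bases of mm9 at chr5:65213568-65214148 and so cross an intron, had levels of 2.56 and 2.61 in IELs and of 2.82 and 2.93 in SPLs. Both IEL arrays were below both SPL arrays, by -0.37 on slide 1 and -0.22 on slide 2. The log2 fold change was -0.29 (SE 0.23, 95% confidence interval -0.90 to 0.32, limma adjusted p = 0.650). The second Klf3 probe, A_52_P462392, gave -0.18 (SE 0.23, limma adjusted p = 0.763), with all 4 levels between 1.68 and 1.93. With normexp both Klf3 values turned positive, to 0.054 and 0.18.

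Cd69, whose product holds S1PR1 off the cell surface, was close to level across the arrays. Its probe at chr6:129217697-129217756 had levels of 5.02 and 4.75 in IELs and of 4.84 and 5.13 in SPLs. The groups overlapped, and the differences on the slides were -0.11 and -0.09. The log2 fold change was -0.10 (SE 0.26, limma adjusted p = 0.886), with a 95% confidence interval of -0.80 to 0.60. A difference anywhere within that interval could not be told apart from none. The interval gives no limit of detection, since no probe of the array passed the adjusted threshold. With normexp the Cd69 value was 0.37.

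Cd44 was read by 3 probes on the minus strand of chromosome 2. Probe A_52_P523459, at chr2:102651667-102651726, was printed on 10 spots per array, with a coefficient of variation between spots of 3.60 to 4.69%. Its levels were 1.46 and 1.16 in IELs and 1.11 and 0.75 in SPLs, so both IEL arrays were above both SPL arrays, by 0.71 on slide 1 and by 0.05 on slide 2. The log2 fold change was 0.38 (SE 0.27, 95% confidence interval -0.36 to 1.12, limma adjusted p = 0.640). Probe A_52_P229536 started 1240 bases upstream of it and had levels of 2.57 and 1.70 in IELs and of 1.86 and 1.70 in SPLs, with a log2 fold change of 0.35 (SE 0.37, limma adjusted p = 0.717). Only IEL replicate 1 stood above the SPL range for that probe. Probe A_51_P407053 lay another 21513 bases upstream and was dim, at -3.95 and -3.99 in IELs and -4.26 and -4.56 in SPLs, with a log2 fold change of 0.44 (SE 0.25, limma adjusted p = 0.634). With normexp this dim Cd44 probe gave -0.85.

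The values of each slide show how far the result rests on 1 array. On slide 1, 4 of 11 member probes were at least 2-fold lower in IELs, against 13.7% of all tested probes, and none was at least 2-fold higher, against 11.8%. These were the probes of S1pr1, S1pr4 and S1pr5 and Klf2 A_51_P144264. The S1pr5 probe was not well above background in IEL replicate 1 and entered the test through the SPL group, where it was higher. Fewer member probes were at least 2-fold lower on slide 1 with normexp, as given in the section on processing. On slide 2 none of the 11 was at least 2-fold lower or higher, where 0.731% and 2.46% of all tested probes were. The differences of the same 4 probes on slide 2 lay between -0.37 and -0.17. Each slide held 1 array of each group, so that these values have no replicate within a slide and carry no test.

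**Figure D3:**
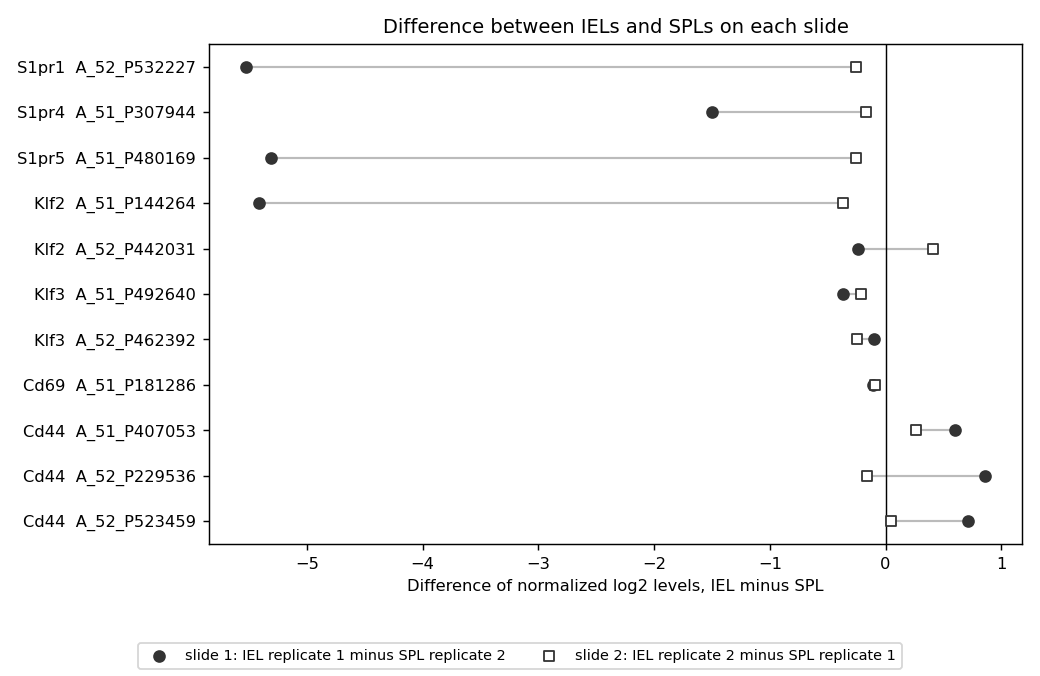
Difference in normalized log2 level between IELs and SPLs (x axis) for each member probe (y axis), on slide 1 (filled circles) and on slide 2 (open squares). S1pr1, S1pr5 and Klf2 A_51_P144264 lie at or below -5.31 on slide 1 and between -0.37 and -0.25 on slide 2; the S1pr5 value on slide 1 comes from a probe not well above background in IEL replicate 1.

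Without IEL replicate 2, limma called 4 of the 11 member probes as lower in IELs, where 10.3% of 28440 tested probes were called lower and 9.1% higher. These were S1pr1 with a log2 fold change of -5.36 (SE 0.27, limma adjusted p = 0.00428), Klf2 A_51_P144264 with -5.23 (SE 0.28, adjusted p = 0.00443) and S1pr4 with -1.65 (SE 0.27, adjusted p = 0.0230), together with S1pr5. For S1pr5 the only IEL array of that fit was not well above background and the probe was tested through the SPL group, so that its call rests on that value and no size is given. In that fit the lone IEL array is assumed to vary as the SPL arrays did. No member probe was called higher, and the Cd44 probes gave 0.45 to 0.79 with limma adjusted p-values of 0.0950 to 0.295. Without IEL replicate 1 none of the 11 probes was called by limma. S1pr1 then gave -0.42 (adjusted p = 0.862), Klf2 A_51_P144264 gave -0.55 (adjusted p = 0.767), S1pr4 gave -0.026 (adjusted p = 0.996) and S1pr5 gave 0.16.

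**Figure D4:**
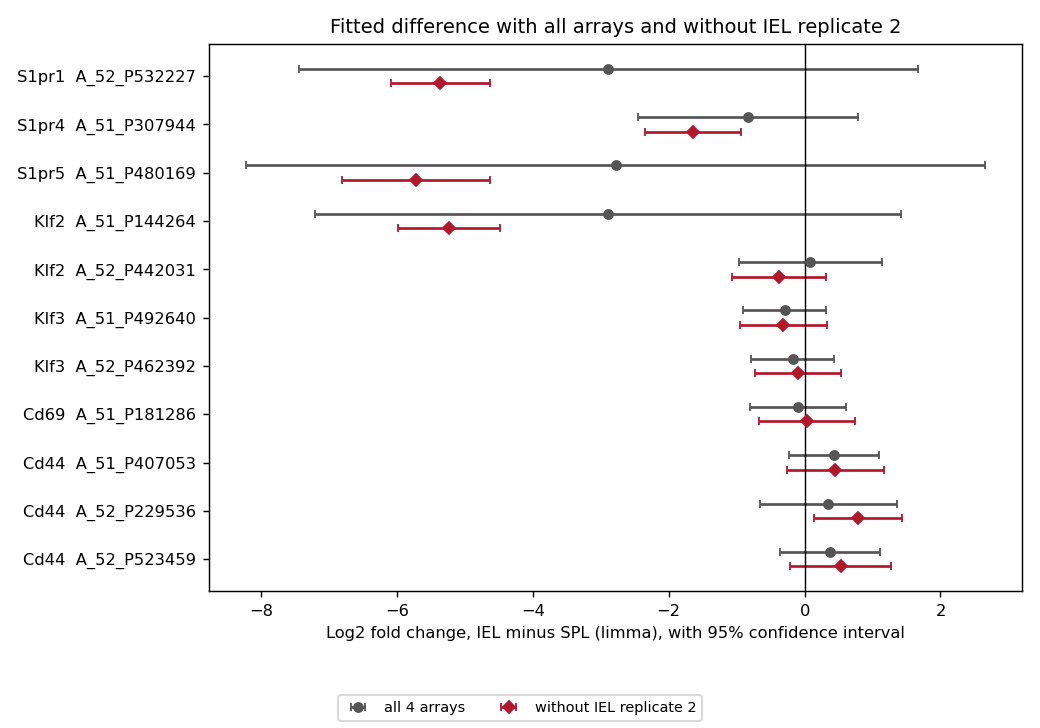
Log2 fold change of IELs over SPLs from limma (x axis) with its 95% confidence interval for each member probe (y axis), with all 4 arrays (grey circles) and without IEL replicate 2 (red diamonds). With all arrays every interval crosses 0; without IEL replicate 2 those of S1pr1, S1pr4, S1pr5, Klf2 A_51_P144264 and Cd44 A_52_P229536 do not, of which Cd44 did not pass after adjustment, and the S1pr5 points include a value not well above background.

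Among 9 regulators of KLF2 and recirculation genes, 7 had a negative and 2 a positive fold change, with a median of -0.13, and none passed the limma test with all arrays. Ccr7, the chemokine receptor that guides T cells into lymph nodes, had levels of 1.60 and 4.89 in IELs and of 5.33 and 5.79 in SPLs. IEL replicate 2 was again close to the SPL arrays. Ccr7 gave a log2 fold change of -2.31 (SE 1.15, limma adjusted p = 0.634). Its value was -3.96 without IEL replicate 2 and -0.67 without IEL replicate 1. Cxcr4, the receptor that holds lymphocytes in bone marrow, gave -2.57. Foxo1, a transcription factor upstream of Klf2, gave 0.35, and its relative Foxo3 gave 0.93. Without IEL replicate 2, Cxcr4 gave -4.23, Foxo1 gave 0.80 and Foxo3 gave 1.29. The fit without IEL replicate 1 gave -0.91 for Cxcr4, -0.092 for Foxo1 and 0.56 for Foxo3.

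The other S1P receptors, S1pr2 and S1pr3, did not pass the test either. S1pr2, which opposes migration, had levels of -0.86 and -1.71 in IELs and of -2.15 and -2.55 in SPLs on its probe A_52_P604613, with both IEL arrays above both SPL arrays. Its log2 fold change was 1.07 (SE 0.39, limma adjusted p = 0.634), and the other S1pr2 probes gave 0.68 and 0.20. With normexp the value of A_52_P604613 was -0.10. For S1pr3 the tested probe gave 0.29 (SE 0.50, limma adjusted p = 0.817), with overlapping groups and a value of -0.44 with normexp, and its other probe did not rise well above background on the 4 arrays.

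Of 13 tested genes that make, export or break down S1P, 7 had positive and 6 negative fold changes, with a median of 0.16, and none passed the test. The kinase Sphk2 gave 1.43, and Plpp2, a lipid phosphatase that the array lists as Ppap2c, gave 0.79. The S1P exporter Spns2 was well above background on 3 of the 4 arrays and not in IEL replicate 1, so that its fitted value of -1.74 is not a measured size, and it was 0.094 with the second normexp fit. The phosphatase Plpp3, listed as Ppap2b, gave -1.11. Of 13 tested genes of S1P receptor signalling and migration, 6 were positive and 7 negative with a median of -0.06, and none passed. Rgs1, which dampens signalling by chemoattractant receptors, gave 2.98 and had levels of 7.60 and 5.78 in IELs and of 4.59 and 2.82 in SPLs. Gna13, the G protein subunit through which S1PR2 signals, gave 0.82. Dock2 and Coro1a, which act on the actin skeleton in migrating T cells, gave -0.91 and -0.73.

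All 10 tested genes tied to T cell residency in tissue had both IEL arrays above both SPL arrays, against 24.4% of all tested probes. Their median log2 fold change was 1.83. This list was chosen with earlier results of these data known, so its counts are descriptions and not support. None of the 10 passed the limma test with all arrays. An unadjusted limma p under 0.05 was found for 5 of them as higher, against 4.63% of all tested probes. The limma adjusted p of each of these 5 was 0.634. Without IEL replicate 2, the log2 fold changes of the tested genes other than Itga1 ran from 0.37 to 3.89. On slide 1 the differences of all 10 had a median of 2.88, and on slide 2 of 0.77, and IEL replicate 2 lay above its SPL partner here too. Itga1, a collagen-binding integrin subunit, was well above background on 3 of the 4 arrays and not in SPL replicate 2. It entered the test through the IEL group, where it was higher, so that its fitted value of 5.75 is not a measured size. With normexp the Itga1 value was 2.53. Markers of epithelial cells, given above, were also above the SPL level in both IEL arrays, and their part in these values was not tested.

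**Figure D5:**
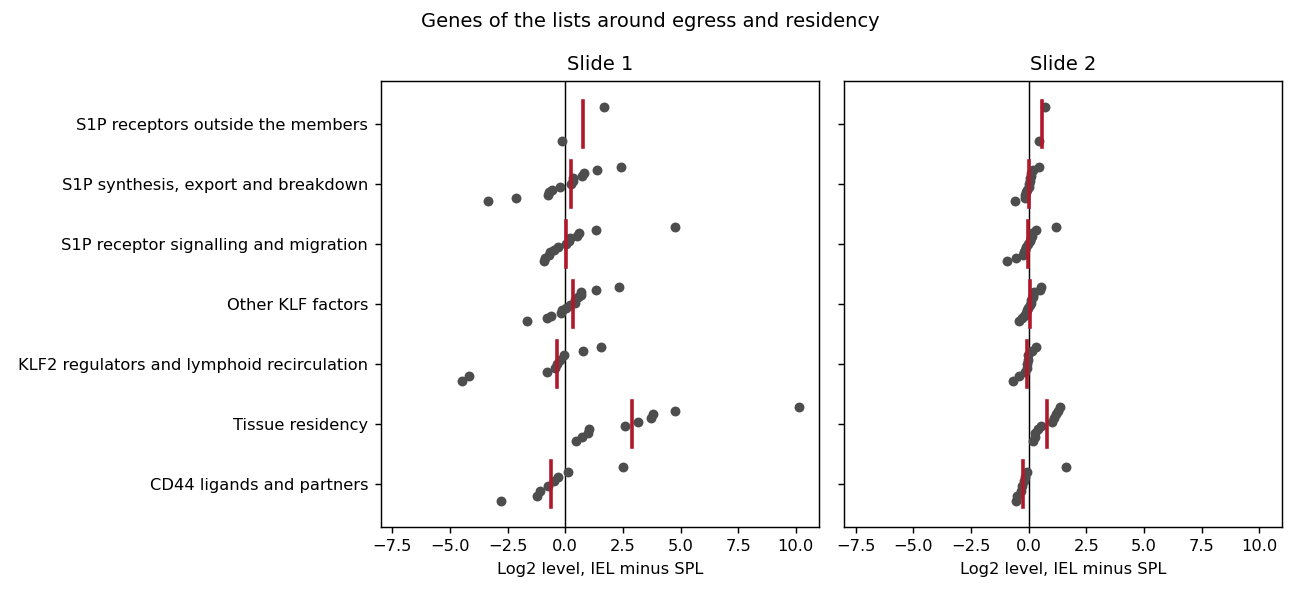
Difference in normalized log2 level between IELs and SPLs (x axes) on slide 1 (left) and slide 2 (right) for the genes of each list (y axis); each point is 1 gene, read by its brightest tested probe, and the red line is the median of the list. The medians of the residency genes are 2.88 and 0.77, and those of the recirculation genes are -0.35 and -0.07.

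The genes whose levels followed a member most closely over the 4 arrays were found by the root mean square difference of centred log2 levels. For S1pr1 these were Cmah, Nme4 and Cnga1, at 0.0872, 0.129 and 0.158. For Klf2 A_51_P144264 they were Ramp1, Cmah and Cnga1, at 0.0879, 0.144 and 0.173, so that Cmah and Cnga1 were near both. For the other Klf2 probe they included Adrbk2 and Lgi4, at 0.0201 and 0.0208. Cd69 was followed most closely by Mrps26, Tbce and Rfxap, at 0.00706 to 0.0122, and Cd44 A_52_P523459 by Fnbp1, Fam219b and Zfand5, at 0.00545 to 0.00970. These are descriptions over 4 arrays only.

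Promoter sequence was examined because KLF factors bind DNA through the motif CACCC, and because S1pr5 and Klf2 A_51_P144264 were among the probes furthest from 0 on slide 1. The S1pr5 probe was not well above background in IEL replicate 1, and the other Klf2 probe differed by -0.24 on slide 1. RefSeq promoters of build GRCm38.p6, which are windows of 300 bases over the start of a gene, were matched for 5 of the 7 members, S1pr4, S1pr5, Klf2, Klf3 and Cd44. CACCC or its reverse complement GGGTG was present in 4 of these 5, and in 57.5% of all 32851 promoters. Klf3 held 5 matches, S1pr5 held 2, Klf2 and S1pr4 held 1 each and Cd44 held 0. The promoters of Klf2, at chr8:72318812-72319111 on the plus strand, and of S1pr5, at chr9:21248394-21248693 on the minus strand, are given 5′ to 3′ with the motif in capitals.
Klf2: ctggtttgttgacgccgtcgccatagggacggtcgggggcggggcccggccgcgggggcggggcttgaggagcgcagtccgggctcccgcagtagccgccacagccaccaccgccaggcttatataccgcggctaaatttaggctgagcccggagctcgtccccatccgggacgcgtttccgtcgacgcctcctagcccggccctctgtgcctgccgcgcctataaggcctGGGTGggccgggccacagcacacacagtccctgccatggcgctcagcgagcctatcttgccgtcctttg
S1pr5: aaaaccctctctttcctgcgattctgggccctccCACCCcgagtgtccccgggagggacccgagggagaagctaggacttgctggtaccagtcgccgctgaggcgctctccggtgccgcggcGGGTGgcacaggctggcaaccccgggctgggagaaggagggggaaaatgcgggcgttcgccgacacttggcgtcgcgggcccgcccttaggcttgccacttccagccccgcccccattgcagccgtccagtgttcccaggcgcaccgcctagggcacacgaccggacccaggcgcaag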

How the data were processed

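Total RNA of 2 IEL and 2 SPL samples was labelled with 1 dye and hybridised to whole mouse genome arrays of 45018 spots. The deposited scanner files held processed signal intensity from Agilent Feature Extraction (version 10.7.1.1 per the labels, 10.7.3.1 per the file headers), and the authors' deposited value table held normalized log2 values, used here as an alternative. The scale and centring of that table were not stated, and its columns had medians of 5.57 to 5.59. The methods name another array type; probe names, sequences and mm9 positions were taken from the scanner files, and current symbols from RefSeq tables of GRCm38.p6, where 11 of 11 member probes matched.

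Control spots and spots marked as outliers were left out, log2 intensity was taken minus the 75th percentile of the 43379 non-control spots of each array (312 to 605 intensity units), and spots of 1 probe were averaged. Of 41174 probes, 27912 were tested, namely those for which all arrays of the IEL group, or all of the SPL group, were well above background, with limma (version 3.58.1, R 4.3.3), two-sided, with Benjamini-Hochberg adjustment over all tested probes at 0.05. The script was tested on simulated data, where recovery of the changed probes was required only with the spread between replicates divided by 4. That check does not show what would be recovered at the spread of these arrays. Between 63.6 and 69.6% of probes were well above background on an array, and precision was limited by having 4 arrays.

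Groups came from the sample titles. Named were every member probe, the 2 genes with the largest positive and negative values of each list, S1pr2 and S1pr3, and the 3 genes nearest in pattern to S1pr1, Klf2, Cd69 and Cd44. A gene of a list was read by its brightest tested probe. A gene of the recirculation list and a gene near Klf2 in pattern are not reported here. The members and lists were chosen with earlier results of these data known. Alternatives were other scalings, normexp background corrections, other filters, slide and replicate number as blocks, the mean of the probes of a gene, the methods' t-test and leaving out each array.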

Additional observations from a re-analysis of the deposited data

How the results depend on the processing

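With every scaling, filter, block and background correction run, limma called 0 member probes, 0 genes of the lists and 0 probes over the whole array. Leaving out 1 array gave 0 to 2589 probes called higher and 0 to 2932 called lower over the whole array, 0 to 12 and 0 to 8 genes of the lists, and 0 to 4 member probes called lower. The upper values came from leaving out IEL replicate 2 and the zeros from leaving out any other array. The methods' t-test, unadjusted, gave 470 probes higher and 349 lower, 1 list gene higher and 4 lower, and 1 member probe lower, and after Benjamini-Hochberg adjustment it gave 0. Arrays of the same replicate number did not deviate together (r = -0.025), and the fit with replicate number as a block called 0 probes and changed no call.

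With normexp, which moved the median of all probes by -0.38, 2 member probes were at least 2-fold lower on slide 1, and 1 was lower and 1 higher on slide 2. Under normexp the sign turned for Cd69 (0.37), Cd44 A_51_P407053 (-0.85), Klf3 (0.054 and 0.18), S1pr2 (-0.10), S1pr3 (-0.44), Ppap2c (-0.94), Klf5 (-0.76), Foxo3 (-0.47) and Spp1 (-0.90). With normexp fitted without spots far below local background, an alternative chosen after seeing the data, it turned for Spns2 (0.094) and Klf1 (0.18). Leaving out 1 array gave ranges that crossed 0 for S1pr5 (-5.72 to 0.16), Cd44 A_52_P229536 (-0.083 to 0.79), Cd69 (-0.25 to 0.049), Klf2 A_52_P442031 (-0.37 to 0.54), S1pr3 (-0.33 to 0.92), Ppap2b (-2.48 to 0.26), Klf5 (-0.11 to 2.54) and Foxo1 (-0.092 to 0.80). The brightest Klf2 probe gave 0.08 and the mean of both -1.41. The cause of these changes was not tested. Over the arrays left out, S1pr1 ranged from -5.36 to -0.42, Klf2 A_51_P144264 from -5.23 to -0.55 and S1pr4 from -1.65 to -0.026, in each case nearest to 0 without IEL replicate 1. S1pr5, Spns2, Itga1 and Spp1 were each not well above background on at least 1 array, so that their fitted values are not measured sizes.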

Other observations

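Among 14 tested members of the KLF family other than Klf2 and Klf3, 8 had positive and 6 negative log2 fold changes, with a median of 0.16, and none passed the limma test with all arrays. Klf5, a factor of proliferating gut epithelium, gave 1.22, and Klf9 gave 0.92. Klf7 gave -0.96, and Klf1, the erythroid member, gave -0.62. Without IEL replicate 2, Klf5 gave 2.54, Klf9 gave 1.63 and Klf7 gave -1.46. The fit without IEL replicate 1 gave -0.11 for Klf5, 0.21 for Klf9 and -0.46 for Klf7. Klf5 and the epithelial marker sum were both highest in IEL replicate 1. Elsewhere they differed, since Klf5 was higher in SPL replicate 2 (-4.26) than in IEL replicate 2 (-4.56). Klf1 and the erythroid marker sum both rose from IEL replicate 1 over IEL replicate 2 and SPL replicate 1 to SPL replicate 2. The part of these markers in the Klf5 and Klf1 values was not tested.

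Of 15 ligands and partners of CD44, 8 were tested, of which 1 had a positive and 7 a negative log2 fold change, with a median of -0.48. Spp1, which encodes the CD44 ligand osteopontin, was well above background in both IEL arrays and in neither SPL array, so it was tested through the IEL group. With the processed intensities it was at least 3.23-fold higher in IELs (limma adjusted p = 0.634). That bound did not hold with other background corrections. The log2 fold change of Spp1 was -0.90 with normexp and 0.68 with normexp fitted without spots far below local background. Cd74, the invariant chain of antigen-presenting cells, gave -1.67, and Msn, which links CD44 to actin, gave -0.77. None passed the limma test with all arrays. Without IEL replicate 2, the log2 fold changes ran from -3.08 for Cd74 to 2.23 for Spp1, whose value is not a measured size. Msn then gave -1.19 and the hyaluronidase Hyal2 gave -1.16. Hyal2 was named after its value was seen. The fit without IEL replicate 1 gave -0.25 for Cd74 and -0.35 for Msn. The hyaluronan synthases Has1, Has2 and Has3 did not pass the filter on signal over background.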
